A study of Homo sapiens with 15 samples.

Results

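The protein kinase A (PKA) and CREB genes of the NanoString PanCancer Pathways panel were followed in HCT116 cells, a human colon carcinoma line, after exposure to 2 compounds, their mixture and a hybrid of them. The members were the panel rows whose symbol begins with PRKAC or PRKAR, together with CREB3L4 and CREB5, which gave 8 of the 730 endogenous genes. They were 3 catalytic subunit genes (PRKACA, PRKACB and PRKACG), 3 regulatory subunit genes (PRKAR1B, PRKAR2A and PRKAR2B) and 2 CREB family transcription factors. PRKAR1A was not analysed here. The cells were untreated, or were given 40 µM thymoquinone (TQ), 15 µM 5-fluorouracil (5-FU), both compounds together at 35 µM each (Combi), or 35 µM of SARB, a hybrid in which TQ and 5-FU are linked through an ester, and all were collected after 24 h. Each of the 5 groups held 3 samples, labelled as biological replicates of this 1 cell line. Control cells were labelled untreated, with no solvent control named, and the compounds were kept in DMSO, so the effect of a compound and that of its solvent cannot be told apart in the comparisons with control.

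PKA is the main cAMP-activated kinase of the cell. Its inactive form holds catalytic subunits bound to a dimer of regulatory subunits, and cAMP binding to the regulatory subunits sets the catalytic subunits free to phosphorylate their substrates. CREB proteins are basic leucine zipper transcription factors, of which CREB1 is the classical PKA substrate at promoters that carry a cAMP response element. In the intestinal epithelium, cAMP and PKA are best known for control of chloride and fluid secretion, and PKA can also phosphorylate β-catenin.

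The total count over the endogenous genes lay between 135017 and 607782 per sample, with 220040 to 258006 in control. Levels are given as scaled counts, which are raw counts brought to a common level through the geometric mean of the 40 housekeeping genes of each sample. The background of a sample was the mean plus 2 SD of its 8 negative control probes, between 6.2 and 26.4 raw counts. By the scan names in their labels, the samples fell into 3 sets, called cartridges here although the labels do not use that word. The first held control replicate 1 and all TQ, 5-FU and SARB samples. The next held control replicates 2 and 3 and Combi replicate 1, and the last held Combi replicates 2 and 3. All 7 epithelial marker genes on the panel exceeded the background in all 15 samples, and 0 of 10 markers of immune, endothelial and stromal cells did, 7 of these 10 being above it in at most 3 samples. Because probes differ in efficiency, levels of different genes were not compared with each other.

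Both reductions that stood out among the PKA genes were in 1 gene of a pair, while its close relative stayed nearer to control. The catalytic gene PRKACB was called lower than control in each of the 4 treatments, whereas PRKACA was called in 0 of them. The regulatory gene PRKAR2B was called lower in Combi and SARB, whereas PRKAR2A was called in 0 of the treatments. A gene was called at an adjusted p of at most 0.05 and a change of at least 1.5-fold by the quasi-likelihood test of edgeR, p-values being adjusted over all 730 genes by the Benjamini-Hochberg method. The 4 comparisons with control share the same 3 control samples and are therefore given side by side. Counted over the 8 members, 2 were called lower after TQ, where 21.6% of all genes were, 1 after 5-FU (10.1% of all genes), 2 after Combi (6.58%) and 4 after SARB (20%). The share was close to that of all genes after TQ and 5-FU, and above it in Combi and SARB, where it rested on 2 and 4 genes. These counts over all genes moved with single libraries. For TQ the 158 genes called lower became 62 without TQ replicate 2 and 82 without control replicate 3, and for SARB the 146 became 91 when control replicate 3 was left out, 92 when SARB replicate 3 was, and 243 when SARB replicate 2 was. None of the 8 members was called higher, against 3.42% of all genes after TQ, 10.1% after 5-FU, 13.6% after Combi and 8.63% after SARB. As these are bulk RNA samples, fewer cells with a transcript and less of it per cell cannot be told apart.

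**Figure D1:**
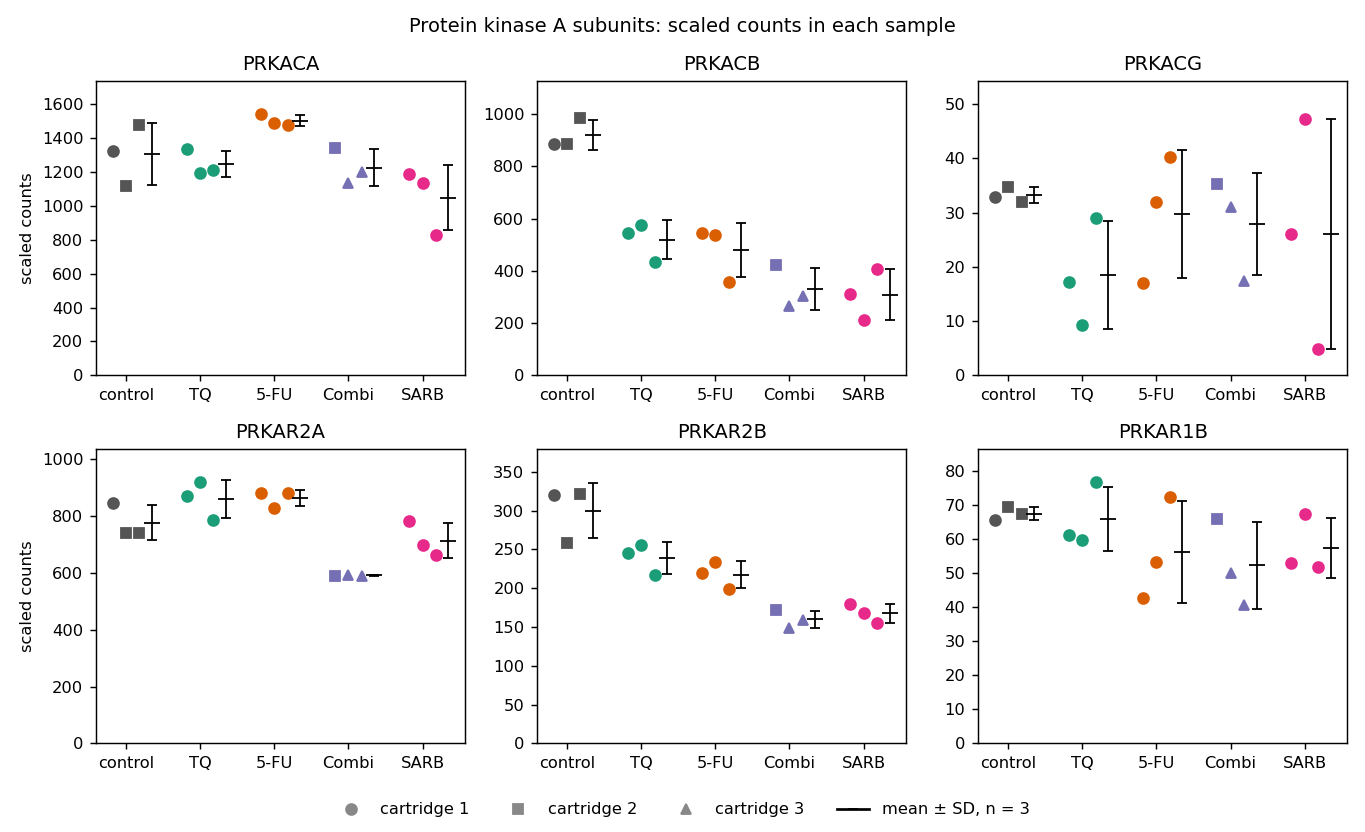
Scaled counts of the 6 PKA subunit genes (vertical axes, each from 0) in the 3 samples of each group. Marker shape gives the cartridge and bars the mean ± SD (n = 3). For PRKACB all treated samples, at most 575.3, lie below the lowest control sample at 884.4.

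PRKACB encodes the catalytic subunit Cβ. It had 885.5, 884.4 and 984.9 scaled counts in the control replicates, against 545.9, 575.3 and 434.9 after TQ and 543.4, 536.2 and 358.6 after 5-FU. The counts were 422.6, 265.6 and 304.8 after Combi and 310.4, 211.7 and 405.5 after SARB. Every treated sample was below every control sample, and the lowest of all was SARB replicate 2. The group means were 918 ± 57.7 in control, 519 ± 74.1 after TQ, 479 ± 105 after 5-FU, 331 ± 81.7 after Combi and 309 ± 96.9 after SARB (SD, n = 3 each). The log2 fold changes against control were -0.82 ± 0.20 after TQ (SE; edgeR adjusted p = 0.00528), -0.94 ± 0.20 after 5-FU (adjusted p = 0.00118), -1.48 ± 0.20 after Combi (adjusted p = 7.26e-06) and -1.55 ± 0.20 after SARB (adjusted p = 4.78e-06). In ascending order of fold change PRKACB ranked at place 11 of 730 genes after Combi, 46 after SARB, 89 after 5-FU and 249 after TQ.

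The TQ call depended on the scaling. The median of all 730 log2 fold changes was -0.47 after TQ, -0.27 after 5-FU, -0.10 after Combi and -0.41 after SARB under housekeeping scaling, and between -0.07 and -0.02 in these comparisons under TMM, a scaling that centres most genes on no change. Under TMM in edgeR, PRKACB was still called after 5-FU (-0.73, adjusted p = 0.0294), Combi (-1.40, adjusted p = 9.18e-05) and SARB (-1.16, adjusted p = 0.000736), and was not called after TQ (-0.35, adjusted p = 0.301). With cartridge as a block in edgeR it was called in the same 3 treatments, at -0.88 after 5-FU, -1.14 after Combi and -1.49 after SARB, and not after TQ (-0.76, adjusted p = 0.0852). That fit has control replicate 1 as the single control for TQ, 5-FU and SARB, and replicate 1 as the single Combi sample. DESeq2 with its own size factors called PRKACB after Combi (-1.46) and SARB (-1.15), and not after TQ (-0.32) or 5-FU (-0.71, adjusted p = 0.125).

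PRKACA encodes Cα, the catalytic subunit found in most tissues. Its scaled counts were 1321, 1113 and 1476 in control, 1334, 1191 and 1211 after TQ, and 1541, 1487 and 1477 after 5-FU. They were 1341, 1132 and 1201 after Combi and 1184, 1131 and 828 after SARB. The TQ, Combi and SARB samples overlapped with control, while the 5-FU samples all lay above it by a narrow margin. The log2 fold changes were -0.07 ± 0.13 after TQ (95% interval -0.34 to 0.21), 0.21 ± 0.13 after 5-FU (-0.07 to 0.48), -0.09 ± 0.13 after Combi (-0.36 to 0.18) and -0.32 ± 0.13 after SARB (-0.59 to -0.04). None was called, the nearest being SARB with an edgeR adjusted p of 0.0603. The signs of the small differences in TQ and SARB turned under TMM, to 0.39 and 0.02.

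The third catalytic gene, PRKACG (Cγ), is an intronless gene known mainly from testis. It was near background, with 7 to 59 raw counts, and exceeded the background in 12 of 15 samples, among them 1 of 3 controls. All TQ samples were below control, the other groups overlapped with it, and the fold change against control did not pass the test after TQ (-0.94 ± 0.61), 5-FU (-0.16 ± 0.57), Combi (-0.27 ± 0.56) or SARB (-0.45 ± 0.57).

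The ratio of PRKACB to PRKACA within a sample does not depend on the scaling between samples. PRKACB counts were 66.7% to 79.5% of PRKACA counts in control, 35.9% to 48.3% after TQ, 24.3% to 36.0% after 5-FU, 23.5% to 31.5% after Combi and 18.7% to 49.0% after SARB. All treated samples were below all controls, with SARB the most scattered group. The 2 probes may differ in efficiency, so this is a measure of change and not a ratio of transcripts. The differences of the mean log2 ratio from control were -0.77 after TQ, -1.18 after 5-FU, -1.41 after Combi and -1.30 after SARB. In each case the exact two-sided permutation test gave p = 0.1, the smallest value that 3 against 3 samples allow, or 0.111 after Benjamini-Hochberg adjustment over the 10 ratio tests.

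**Figure D2:**
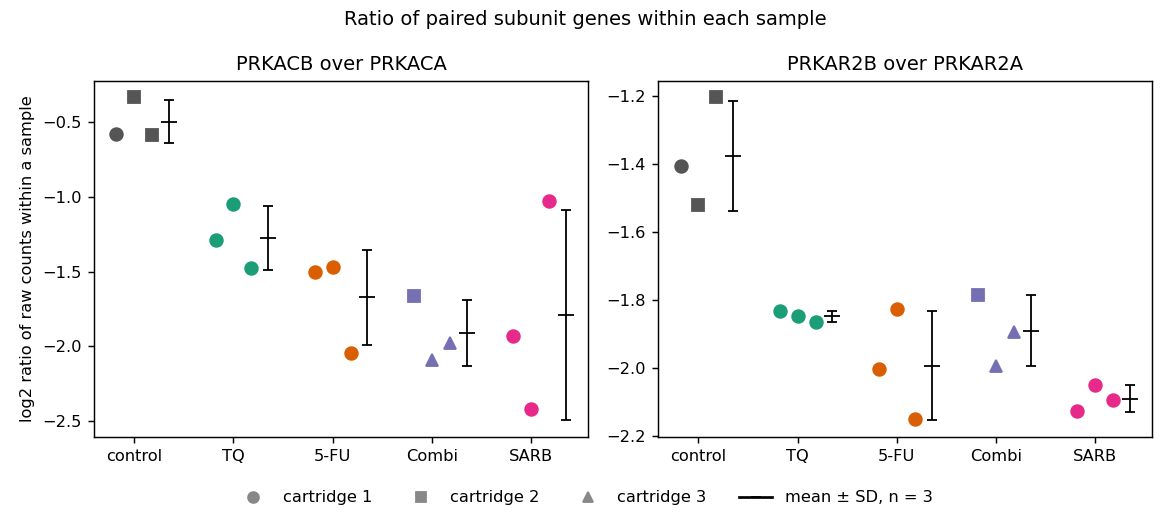
Log2 ratio of raw counts within each sample for the catalytic pair (left) and the type II regulatory pair (right), by group, with cartridge as marker shape and mean ± SD (n = 3). Both ratios are lower in every treated sample than in every control sample, by mean differences of 0.77 to 1.41 for the catalytic pair and 0.47 to 0.71 for the regulatory pair on the log2 scale.

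The sequences at the annotated starts of PRKACB, which was called lower, and PRKACA, which was not, are shown as a description. Each runs from 250 bases before to 50 bases after the most upstream start that RefSeq gives on GRCh38.p14. A link between these windows and the calls was not tested. PRKACA lies on the minus strand with its window at chr19:14117713-14118012, and PRKACB on the plus strand with its window at chr1:84077829-84078128. Capitals mark TGACG on either strand (CGTCA when it is on the other strand), the core shared by cAMP response elements and contained in the full element TGACGTCA.
PRKACA: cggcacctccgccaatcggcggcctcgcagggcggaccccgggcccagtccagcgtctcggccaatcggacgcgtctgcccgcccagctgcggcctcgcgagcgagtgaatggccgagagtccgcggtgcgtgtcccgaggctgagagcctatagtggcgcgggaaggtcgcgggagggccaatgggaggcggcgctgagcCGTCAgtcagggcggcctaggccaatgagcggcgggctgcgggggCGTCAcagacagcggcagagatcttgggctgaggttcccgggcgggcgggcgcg
PRKACB: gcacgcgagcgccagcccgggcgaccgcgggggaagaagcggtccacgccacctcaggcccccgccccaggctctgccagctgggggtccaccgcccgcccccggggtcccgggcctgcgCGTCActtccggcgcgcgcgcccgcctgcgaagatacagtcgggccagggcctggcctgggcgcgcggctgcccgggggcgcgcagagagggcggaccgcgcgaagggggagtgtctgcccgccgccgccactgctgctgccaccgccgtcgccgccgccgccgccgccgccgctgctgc
The PRKACA window holds the core at positions -49 and -4 from the start and the PRKACB window at position -130. Neither contains TGACGTCA, which occurs in 1.85% of the 35116 RefSeq windows of this length, while TGACG occurs in 24.6% of them. PRKACB has 5 annotated starts. The first window has a GC content of 81.3% and the other 4 have 32.7% to 35.0%, against a median of 58.7% over all windows. The panel gives 1 value for PRKACB, which was not assigned to any of the 5 starts.

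Of the regulatory subunits, PRKAR2B encodes RIIβ, the type II subunit known from brain and adipose tissue, and PRKAR2A encodes the widely expressed RIIα. PRKAR2B had 320, 258.5 and 321 scaled counts in control, 244.8, 255.3 and 216.6 after TQ, and 219.8, 234.2 and 198.8 after 5-FU. It had 171.6, 149.1 and 158.7 after Combi and 179.3, 168.5 and 155 after SARB. All treated samples were below the lowest control, TQ replicate 2 only just, and Combi and SARB were below all TQ and 5-FU samples as well. The doses differed from those of the single compounds, and Combi and SARB were not tested against these. The log2 fold changes were -0.91 ± 0.13 after Combi (SE; edgeR adjusted p = 1.68e-05) and -0.84 ± 0.13 after SARB (adjusted p = 4.64e-05), which were called. They were -0.46 ± 0.14 after 5-FU (adjusted p = 0.0127) and -0.32 ± 0.14 after TQ (adjusted p = 0.0683), both under 1.5-fold. The Combi call held under TMM (-0.82), with the cartridge block (-0.75) and in DESeq2 (-0.89). The SARB call held with the cartridge block (-0.94), whereas under TMM the change was -0.49 (edgeR adjusted p = 0.0256), under 1.5-fold, and in DESeq2 it was -0.48 (adjusted p = 0.0519).

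PRKAR2A had 847.5, 742.3 and 739.5 scaled counts in control, 871.5, 918.7 and 787.9 after TQ, 880.4, 830.2 and 881.2 after 5-FU, 590.8, 593.4 and 589.9 after Combi, and 782.8, 697.1 and 661.4 after SARB. The 3 Combi samples were the lowest of all 15 and differed from each other by less than any other group did. In Combi the log2 fold change was -0.39 ± 0.11 (edgeR adjusted p = 0.00851), which passed the p threshold but not 1.5-fold. The values were 0.15 ± 0.11 after TQ, 0.15 ± 0.11 after 5-FU and -0.12 ± 0.11 after SARB, none of them past the test. Under TMM, PRKAR2A was called higher after TQ (0.60, edgeR adjusted p = 0.00691), and with the cartridge block it was at 0.02 there.

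Within samples, PRKAR2B counts were 34.8% to 43.4% of PRKAR2A counts in control, 27.5% to 28.1% after TQ, 22.6% to 28.2% after 5-FU, 25.1% to 29.0% after Combi and 22.9% to 24.2% after SARB. Controls again stood above all treated samples. The mean log2 ratio differed from control by -0.47 after TQ, -0.62 after 5-FU, -0.51 after Combi and -0.71 after SARB, each with an exact two-sided permutation p of 0.1 and an adjusted p of 0.111 over the 10 ratio tests. With Combi, the PRKAR2A samples were also below control, and the ratio differed from control by less than PRKAR2B did.

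PRKAR1B encodes RIβ, a type I subunit best known from brain. It was low, at 25 to 105 raw counts, yet above background in 15 of 15 samples. Its mean scaled counts were 67.5 ± 1.92 in control, 65.9 ± 9.40 after TQ, 56.1 ± 15.0 after 5-FU, 52.2 ± 12.7 after Combi and 57.4 ± 8.72 after SARB (SD, n = 3). The groups overlapped, and the log2 fold changes of -0.04 after TQ, -0.27 after 5-FU, -0.39 after Combi and -0.25 after SARB did not pass edgeR's test.

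The windows at the starts of the type II regulatory genes are also given as a description, with no link to the calls tested. RefSeq gives 1 start for each on GRCh38.p14. The window of PRKAR2A is at chr3:48847825-48848124 on the minus strand and that of PRKAR2B at chr7:107044455-107044754 on the plus strand, with TGACG on either strand in capitals.
PRKAR2A: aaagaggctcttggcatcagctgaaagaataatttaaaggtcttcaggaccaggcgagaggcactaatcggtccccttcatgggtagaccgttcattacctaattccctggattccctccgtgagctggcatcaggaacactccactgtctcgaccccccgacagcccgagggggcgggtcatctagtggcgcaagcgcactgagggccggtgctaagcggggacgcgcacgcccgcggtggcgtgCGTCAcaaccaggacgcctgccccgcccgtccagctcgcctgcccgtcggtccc
PRKAR2B: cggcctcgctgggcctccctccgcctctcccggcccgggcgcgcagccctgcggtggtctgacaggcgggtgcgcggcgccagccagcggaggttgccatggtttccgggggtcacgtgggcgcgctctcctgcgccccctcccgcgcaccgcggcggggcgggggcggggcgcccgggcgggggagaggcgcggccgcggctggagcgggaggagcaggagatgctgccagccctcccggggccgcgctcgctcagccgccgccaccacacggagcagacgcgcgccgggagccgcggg
PRKAR2A holds the core at position -4 and PRKAR2B holds none in this window. The GC contents are 62.7% and 81.7%. Over all members, 7 of 8 had RefSeq windows, 19 in number, of which 5 held TGACG and 0 held TGACGTCA. The core stood in windows of PRKACA, PRKACB, PRKAR2A and PRKAR1B. Windows of a gene can overlap, and those at PRKAR1B starts 4 and 5 hold the same site, so the 19 are not independent.

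CREB3L4 and CREB5, the transcription factors of the group, were measured close to background, and their calls rested on few counts. CREB3L4 (also called CREB4 or AIbZIP) is a membrane-bound factor of the endoplasmic reticulum that is released by cleavage. It had 32.86, 52.91 and 53.78 scaled counts in control, 22.03, 9.865 and 23.88 after TQ, 15.87, 19.96 and 37.53 after 5-FU, 34.08, 35.31 and 29.94 after Combi, and 16.39, 35.06 and 18.21 after SARB. The TQ samples were below all controls, and the other treated groups overlapped with control. It was called lower after TQ (log2 fold change -1.43 ± 0.45, edgeR adjusted p = 0.0191) and, at the limit of the threshold, after SARB (-1.05 ± 0.41, adjusted p = 0.05), and not after 5-FU (-0.94 ± 0.42, adjusted p = 0.101) or Combi (-0.49 ± 0.40, adjusted p = 0.426).

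CREB5 (CRE-BPa) is a factor related to ATF2 that binds the cAMP response element. Its scaled counts were 32.86, 42.33 and 33.61 in control, 29.38, 28.36 and 44.34 after TQ, 15.87, 30.6 and 37.53 after 5-FU, 46.58, 42.68 and 51.51 after Combi, and 14.46, 28.31 and 12.8 after SARB. All SARB samples were below, and all Combi samples above, every control. Against control it was called lower after SARB (-1.04 ± 0.38, edgeR adjusted p = 0.0378), and was at -0.11 ± 0.38 after TQ, -0.38 ± 0.38 after 5-FU and 0.37 ± 0.36 after Combi, which did not pass the test.

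**Figure D3:**
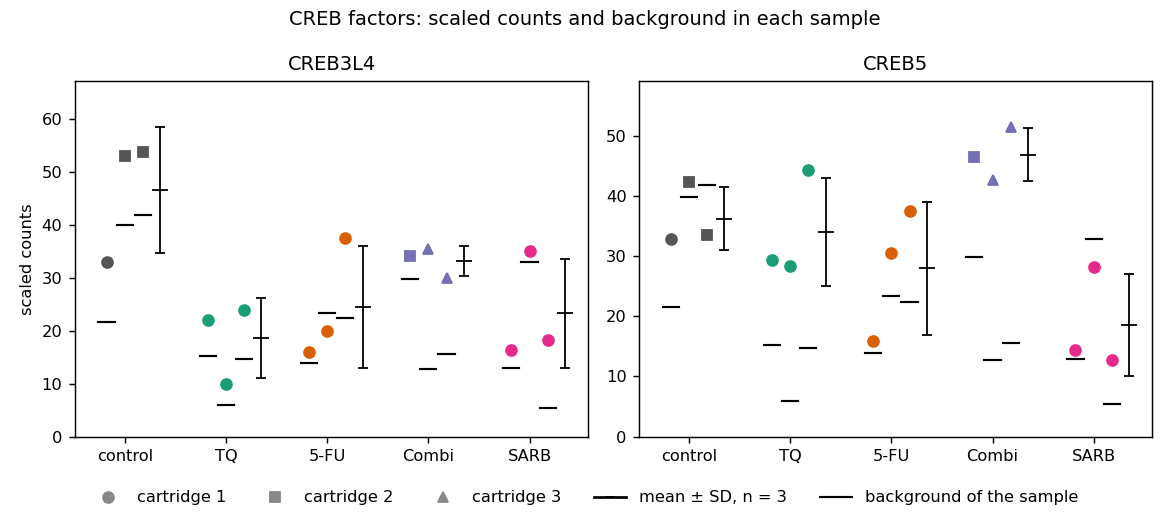
Scaled counts of CREB3L4 and CREB5 by sample and group, with cartridge as marker shape, mean ± SD (n = 3) and a short line for each sample's own background on the same scale. CREB5 lies below the line in control replicate 3 and SARB replicate 2, and CREB3L4 in 5-FU replicate 2.

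Raw counts of CREB3L4 ran from 9 to 67 and exceeded the background in 14 of 15 samples. Those of CREB5 ran from 12 to 86 and did so in 13 of 15. The negative control probes themselves differed between groups on the scaled axis, with means of 11.67 to 20.59 in the control samples, 3.55 to 7.65 after TQ, 8.39 to 13.9 after 5-FU, 7.25 to 14.63 after Combi and 3.2 to 16.35 after SARB. In the deposited normalized values, from which background had been subtracted, limma with Benjamini-Hochberg adjustment gave CREB3L4 -1.47 after TQ (adjusted p = 0.0464) and -1.16 after SARB (adjusted p = 0.0806), and CREB5 -1.09 after SARB (adjusted p = 0.0549). The CREB3L4 call after TQ was lost without control replicate 2 or 3 (-1.32 each) and without TQ replicate 2 (-1.01). The SARB calls of both genes were lost without control replicate 2 or 3 and without SARB replicate 1 or 3, between -0.94 and -0.86 for CREB3L4 and between -1.09 and -0.80 for CREB5. Under TMM and with the cartridge block neither gene was called against control.

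Under TMM the members called lower numbered 0 after TQ (6.03% of all genes), 1 after 5-FU (5.62%), 2 after Combi (5.75%) and 1 after SARB (9.32%), and the 1 called higher was PRKAR2A after TQ, where 10.8% of all genes were. None was called higher there after 5-FU (14.2% of all genes), Combi (16.3%) or SARB (16.4%), or for SARB against Combi (5.34%). With the cartridge block, 0 members were called lower after TQ (3.56% of all genes), 1 after 5-FU (5.34%), 2 after Combi (4.79%) and 2 after SARB (7.67%). The scaled counts of 4 members did not overlap with control after TQ, of 3 after 5-FU, of 4 after Combi and of 3 after SARB, beside 45.6%, 44.1%, 36.0% and 42.1% of all genes. The members' shares lay on both sides of these. The median log2 fold change of the 8 members was -0.21 after TQ, -0.33 after 5-FU, -0.39 after Combi and -0.65 after SARB, beside -0.47, -0.27, -0.10 and -0.41 for all genes. Under TMM the members' median turned to 0.25 after TQ, and it was -0.15 after 5-FU, -0.31 after Combi and -0.35 after SARB.

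SARB and Combi were the treatments at matched doses, 35 µM of the hybrid against 35 µM of each compound unlinked. Their comparison asks whether joining the molecules made a difference to these genes. None of the 6 PKA genes was called between them in edgeR. SARB minus Combi was -0.06 for PRKACB (95% interval -0.48 to 0.36), 0.07 for PRKAR2B (-0.21 to 0.35), -0.23 for PRKACA (-0.50 to 0.05), 0.14 for PRKAR1B (-0.34 to 0.62) and -0.18 for PRKACG (-1.33 to 0.96) on the log2 scale. For PRKAR2A it was 0.27 (0.05 to 0.49, edgeR adjusted p = 0.0796), with all 3 SARB samples above all 3 Combi samples, and DESeq2 called this difference (0.60, adjusted p = 0.00877). The ratio of PRKACB to PRKACA differed by 0.12 (exact two-sided permutation p = 0.8, adjusted p = 0.8). The ratio of PRKAR2B to PRKAR2A was lower in each SARB sample than in each Combi sample, by 0.20 (exact p = 0.1, adjusted p = 0.111).

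CREB5 was the 1 of 8 members called between the linked and the unlinked compounds, in a comparison where 11.2% of all genes were called lower. The members' share was near that of all genes, whose median log2 fold change was -0.32. The 82 genes called lower became 40 without SARB replicate 3, 49 without Combi replicate 3 and 148 without SARB replicate 2. CREB5 was 2.64-fold lower after SARB, with 14.46, 28.31 and 12.8 scaled counts against 46.58, 42.68 and 51.51 after Combi (log2 fold change -1.40 ± 0.36, 95% interval -2.16 to -0.65, edgeR adjusted p = 0.0104). CREB3L4 did not pass the test (-0.55, -1.39 to 0.28). No member was called higher, where 0.959% of all genes were. Groups did not overlap for CREB5 and PRKAR2A, 2 of 8 members, beside 33.8% of all genes. CREB5 was called under TMM (-1.17, adjusted p = 0.0112, with 7.40% of all genes called lower), in DESeq2 (-1.11, adjusted p = 0.011) and in limma on the background-subtracted values (-1.83, adjusted p = 0.0189). The call was lost when Combi replicate 3 (-1.32), SARB replicate 1 (-1.27) or SARB replicate 3 (-1.17) was left out, at edgeR adjusted p-values of 0.0534 to 0.058. No cartridge held both treatments, so cartridge and treatment cannot be told apart here, and the block left CREB5 at -1.18 with 0 members called lower (0.137% of all genes). SARB at 35 µM was not tested against TQ at 40 µM or 5-FU at 15 µM, since these doses differ.

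Across the 15 samples the genes with log2 levels most like PRKACB, out of 514 with a mean of at least 20 raw counts, were KITLG (Pearson r = 0.90), BDNF (0.90) and PRKAR2B (0.90). For PRKAR2B they were RAD21 (0.95), BMP4 (0.93) and BDNF (0.91). These samples share groups and housekeeping scaling. Within the 10 samples of the first cartridge the 6 coefficients lay between 0.83 and 0.94. Those 10 are among the 15 by which the genes were chosen, so this is not a separate check. CREB3L4 and CREB5 were close to background, and the scaled negative probes differed between groups. The part of background in their likeness to other genes was not tested. The genes most like CREB3L4 were SOX17 (0.91), CALML5 (0.91) and IL22RA1 (0.90), and those most like CREB5 were HES1 (0.83), PBX3 (0.80) and EFNA2 (0.77). Within the first cartridge, again in samples by which the genes were chosen, these 6 lay between 0.78 and 0.89.

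Of the other genes of the cAMP, PKA and CREB pathway, 17 were on the panel. After TQ 2 of them were called higher and 4 lower, after 5-FU 1 and 0, after Combi 4 and 1, after SARB 1 and 3, and between SARB and Combi 0 and 1. Of all genes, 3.42% were called higher and 21.6% lower after TQ, 10.1% and 10.1% after 5-FU, and 13.6% and 6.58% after Combi. The shares were 8.63% and 20% after SARB, and 0.959% and 11.2% between SARB and Combi. Their median log2 fold changes were -0.49 after TQ, -0.24 after 5-FU, -0.07 after Combi, -0.42 after SARB and -0.21 for SARB against Combi, beside -0.47, -0.27, -0.10, -0.41 and -0.32 for all genes. The shares called lower after TQ and SARB were near the 21.6% and 20% of all genes. Under TMM the balance turned, with 3 higher and 0 lower after TQ and 4 higher and 0 lower after SARB, beside 2 and 0 after 5-FU, 4 and 1 after Combi, and 1 and 1 for SARB against Combi. It turned over all genes as well, to 10.8% higher and 6.03% lower after TQ and 16.4% and 9.32% after SARB. The other shares of all genes were 14.2% and 5.62% after 5-FU, 16.3% and 5.75% after Combi, and 5.34% and 7.40% for SARB against Combi. GNAS, which encodes the G protein subunit that stimulates adenylyl cyclase, was at 0.04, 0.33, 0.14 and 0.15 after TQ, 5-FU, Combi and SARB, and PRKX, a kinase related to the PKA catalytic subunits, was at -0.23, 0.66, -0.20 and 0.26, with none of these called. Under TMM, PRKX was called higher after 5-FU (0.86) and for SARB against Combi (0.70).

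Among the CREB factors and coactivators, CREB3L1 (-2.12), CREB3L3 (-1.33) and the coactivator CREBBP (-1.54) were called lower after TQ, and CREB3L3 (-1.24) after SARB. CREB3L1 and CREB3L3 had 1 to 35 raw counts and were at or below background in most samples, and none of these calls held under TMM or the cartridge block. EP300, the other coactivator, was called in no comparison.

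Of 11 genes known as CREB targets, FOS, FOSL1, NR4A1, BDNF and PCNA were called in at least 1 comparison. FOS was called higher after TQ (2.70 ± 0.19) and Combi (2.29 ± 0.19), and lower after SARB against control (-0.61 ± 0.21) and against Combi (-2.90 ± 0.19). FOSL1, a FOS relative, was higher after TQ (0.64), 5-FU (1.17), Combi (1.29) and SARB (1.08), and NR4A1, an immediate early nuclear receptor, after Combi (0.92). BDNF, a neurotrophin gene and among the genes most like both PRKACB and PRKAR2B, had mean scaled counts of 486 ± 11.8 in control, 348 ± 22.6 after TQ, 363 ± 25.4 after 5-FU, 288 ± 24.5 after Combi and 293 ± 17.1 after SARB (SD, n = 3). It was called lower after Combi (-0.76) and SARB (-0.73), the second not under TMM (-0.38). PCNA, the replication clamp, was lower after TQ (-0.70), not under TMM (-0.25), and higher after Combi (0.72), not with the cartridge block (0.58). The FOS call after SARB against control did not hold under TMM (-0.26) or the cartridge block (-0.70), nor did that of NR4A1 under the block (0.68). Under TMM, calls were added for NR4A1 after TQ (0.88), and for NR4A1 (0.73), PCNA (0.845) and the apoptosis inhibitor gene BCL2 (0.94) after SARB, where housekeeping scaling gave 0.37, 0.52 and 0.59.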

How the data were processed

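RNA (50 ng per sample) was hybridised to the NanoString nCounter PanCancer Pathways panel, which counts barcoded probes without amplification. The authors deposited raw counts per probe, and a normalized signal made in nSolver 3.0 per the labels, in which the geometric mean of the negative probes was subtracted and each sample was scaled through its housekeeping genes. A deposited table of the authors' own fold changes and p-values was not used.

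Differences were tested on the raw counts of 730 endogenous genes with edgeR 4.0.16 (R 4.3.3), with library sizes set by the 40 housekeeping genes, all 15 samples in 1 quasi-likelihood fit and Benjamini-Hochberg adjustment over the 730 genes. A gene was called at an adjusted p of at most 0.05 and at least 1.5-fold. The edgeR fit was tested on simulated counts with known changes in SARB against control. These counts had the same spread for all genes and no cartridge or background differences. Recovery was checked for genes with a mean count of at least 20, and the ratio tests and block fits were not simulated. Within-sample ratios were compared by exact two-sided permutation tests. Cartridges were inferred from the scan names in the labels, which do not use the word cartridge. The number of samples limits the precision of every value, and counts below about 20 are close to background.

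All members were named, together with each pathway gene called in at least 1 comparison and the 3 genes most like each called member (log2 of scaled counts + 1). The members and lists were chosen with earlier results of these data known. Alternatives were TMM, DESeq2 1.42.0 with its own size factors, a mean raw count of at least 20 (514 genes, all 8 members), a cartridge block, a replicate block, limma 3.58.1 on the log2 of the deposited normalized signal, and leaving out each sample. Correlations between the deviations of same-numbered samples lay between -0.31 and 0.21, so the numbers were not taken as pairs. Promoter windows were RefSeq's, on GRCh38.p14, and 7 of 8 members matched by symbol.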

Additional observations from a re-analysis of the deposited data

How the results depend on the processing

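With the mean count filter, all 40 member fold changes kept their direction and their side of the threshold. Under TMM the members called lower fell to 0 in TQ and 1 in SARB, and 1 was called higher in TQ. Signs turned there for PRKACA (0.39), PRKAR1B (0.43), PRKAR2B (0.15) and CREB5 (0.35) in TQ, PRKACG in 5-FU (0.01), PRKACA (0.02), PRKAR1B (0.10) and PRKAR2A (0.22) in SARB, and PRKACA (0.02) and PRKACB (0.24) for SARB against Combi. DESeq2 gave 0 lower and 1 higher in TQ (37 and 85 of all 730 genes) and 0 lower in 5-FU (34). It gave 1 lower in SARB (60 of all genes) and 1 higher for SARB against Combi (48). It turned PRKACA (0.42), PRKAR1B (0.46), PRKAR2B (0.19) and CREB5 (0.39) in TQ, PRKACG in 5-FU (0.01), PRKACA (0.02), PRKAR1B (0.11) and PRKAR2A (0.23) in SARB, and PRKACA (0.09), PRKACB (0.31) and PRKACG (0.05) for SARB against Combi. The cartridge block left 0 lower in TQ, 2 in SARB and 0 for SARB against Combi, and turned CREB5 in TQ (0.03), PRKACA (0.05) and PRKACG (0.08) in Combi, and PRKAR1B (-0.16), PRKAR2B (-0.19) and CREB3L4 (0.10) for SARB against Combi. Limma on the deposited normalized values gave 2 lower in SARB (141 of all genes) and turned PRKAR1B (0.09) and CREB5 (0.31) in TQ. The replicate block gave 2 lower in SARB (126 of all genes), with CREB3L4 (-1.03) and CREB5 (-1.03) no longer called, and changed no other member call. With 1 sample left out, the members called lower numbered 1 to 2 in TQ, 1 to 2 in 5-FU, 2 in Combi, 2 to 4 in SARB and 0 to 1 for SARB against Combi, and PRKACB and PRKAR2B kept every call. The second in 5-FU was CREB3L4 without 5-FU replicate 3 (-1.38). Of all 730 genes, 62 to 185 were called lower in TQ, 54 to 104 in 5-FU and 44 to 67 in Combi with 1 sample left out. In SARB the range was 91 to 243, and for SARB against Combi 40 to 148. Ranges that crossed 0 were those of PRKACA (-0.17 to 0.03), PRKAR1B (-0.16 to 0.04) and CREB5 (-0.34 to 0.04) in TQ, PRKACG (-0.44 to 0.12) in 5-FU, PRKACA (-0.19 to 0.01) in Combi, PRKACG (-1.23 to 0.12) in SARB, and PRKACB (-0.32 to 0.14), PRKACG (-0.96 to 0.39), PRKAR1B (-0.01 to 0.32) and the PRKACB to PRKACA ratio (-0.26 to 0.43) for SARB against Combi. Genes called in all numbered 158 lower and 25 higher in TQ, 44 and 79 under TMM. In the same order they were 146 and 63 in SARB, 68 and 120 under TMM, and for SARB against Combi 82 and 7, 54 and 39 under TMM and 1 and 0 with the cartridge block. The causes were not tested.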
